A study of Homo sapiens with 8 samples.

Results

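The Polycomb group proteins described here are listed subunits of PRC1 and PRC2, the first and second Polycomb repressive complex. They were taken by gene symbol from a fixed list of 39 genes, of which 32 were named on the array, out of 14884 named genes. Where several probe sets carried a gene's name, the brightest of them on average stood for the gene. The levels of RNF2, BMI1, CBX8, YAF2, E2F6, EED and JARID2 were not analysed here. RNF2 encodes RING1B, and whether the hairpin lowered its target was not examined here.

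Total RNA was measured on microarrays in 2 established lines of Ewing sarcoma, a bone and soft tissue tumour whose driver is a chimeric protein of EWSR1 and an ETS transcription factor. The 4 groups, of 2 arrays each, were A673 with a short hairpin RNA against GFP (shGFP, the control), A673 with a hairpin against RING1B (shRING1B), SK-ES1 with shGFP and SK-ES1 with shRING1B. Every group carried a hairpin, so no array shows unmodified cells. The labels name 1 hairpin target per group and give neither the number of hairpin sequences nor the time after their introduction, and they do not tie the 2 arrays of a group to different cultures. The p-values therefore cover the scatter of these arrays alone, which may be technical.

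PRC1 is a ubiquitin ligase for histone H2A. Its catalytic core pairs RING1 or RNF2 with 1 of the PCGF proteins, and the PCGF partner sets the variant: PCGF2 and BMI1 enter canonical PRC1 with a CBX chromodomain protein and a PHC protein, whereas the other PCGF proteins enter variant complexes with RYBP or YAF2. PRC2 methylates histone H3 through EZH1 or EZH2 bound to SUZ12, EED and a histone chaperone, and takes up either a Polycomb-like protein (PHF1, MTF2, PHF19) with EPOP or a product of LCOR, or JARID2 with AEBP2. Both complexes are best known for holding developmental genes silent, and both are drawn to unmethylated CG-rich DNA, PRC1 partly through KDM2B and PRC2 partly through the Polycomb-like proteins.

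The promoters of 3 members are shown because these genes carry the largest hairpin differences among the members with a single promoter entry in the RefSeq table used: MTF2 and SCML2, which fell in A673, and CBX7, which had the highest positive value there. Each is the 250 bases before the annotated start on the gene's own strand, build GRCh38.p14, written 5′ to 3′ with each CG pair in capitals. The windows are chr1:93079033-93079282 on the plus strand for MTF2, chrX:18354689-18354938 on the minus strand for SCML2 and chr22:39152681-39152930 on the minus strand for CBX7.
MTF2: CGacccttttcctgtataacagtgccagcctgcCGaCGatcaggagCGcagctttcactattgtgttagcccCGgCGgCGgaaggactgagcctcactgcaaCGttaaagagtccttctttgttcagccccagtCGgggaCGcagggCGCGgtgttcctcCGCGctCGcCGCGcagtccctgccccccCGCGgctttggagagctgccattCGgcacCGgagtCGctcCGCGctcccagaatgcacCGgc
SCML2: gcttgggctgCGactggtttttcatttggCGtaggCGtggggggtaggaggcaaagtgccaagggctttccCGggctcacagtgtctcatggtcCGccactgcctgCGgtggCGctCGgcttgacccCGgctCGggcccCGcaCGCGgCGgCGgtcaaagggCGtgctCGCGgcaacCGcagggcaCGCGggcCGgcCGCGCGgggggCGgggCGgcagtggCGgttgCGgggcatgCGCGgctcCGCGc
CBX7: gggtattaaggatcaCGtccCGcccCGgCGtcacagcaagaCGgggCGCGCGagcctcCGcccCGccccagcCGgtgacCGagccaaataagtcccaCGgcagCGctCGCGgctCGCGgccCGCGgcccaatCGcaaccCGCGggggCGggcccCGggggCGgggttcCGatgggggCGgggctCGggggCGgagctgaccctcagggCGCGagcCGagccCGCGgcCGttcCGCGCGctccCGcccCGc
MTF2 held 25 CG pairs, more than 78.4% of the 35116 promoter windows in the table, SCML2 held 33 (more than 91.9%) and CBX7 held 41 (more than 98.3%). Over the 55 windows of the 36 listed members with an entry the median was 29 CG pairs, against 11 over all windows. A pair of GGAA repeats written GGAAGGAA, the kind of sequence that EWSR1-FLI1 is known to bind, lay in none of the 55 member windows and in 3.06% of all windows, searched on both strands. The ETS-type word CCGGAAG, which can overlap GGAAGGAA, lay in 4 member windows (of KDM2B, PHC1, PHC2 and PHF19) and in 8.52% of all windows. The E2F-type words TTTCGCGC or TTTGGCGC lay in 1 member window, of MGA, and in 0.968% of all windows. These are matches of letters, not measured binding.

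Nearly all measured members gave signal above the middle of the array. Of the 32 members, 31 lay above the median of all probe sets on each of the 8 arrays, against 64.5% of the 14884 genes. The array medians were 4.01 to 4.1 on the log2 scale, and values from the same group correlated at 0.9911 to 0.9937 across genes. The exception was AUTS2, which stood at 4.93 and 5.03 in A673 shGFP but at 4.12 and 4.08 in SK-ES1 shGFP, next to the array median. Probe sets differ in how brightly they respond, so levels of different genes are not compared below. The 9 measured Ewing sarcoma markers (CD99, NKX2-2, STEAP1, CCND1, BCL11B, CCK, NPY1R, JAK1 and GLI1) lay above the median on every array, and the 2 measured leukocyte markers, CD14 and LYZ, on none. Since 64.5% of all genes pass this rule, it does not by itself tell cell types apart. It also does not check which line or hairpin an array carried. Of 4 epithelial markers KRT18, a keratin, was higher under shRING1B in A673, at 8.95 and 8.64 and then 9.36 and 9.42 (limma adjusted p = 0.0487), and EPCAM, KRT8 and KRT19 were not called. Of these 4 markers 3, KRT19 being the exception, lay above the median on every array, and their mean was 5.2 to 6.0 per array, and that of the 3 endothelial markers, none of them above the median on all arrays, 3.5 to 4.0. Of 4 skeletal muscle markers MYOD1, MYOG and DES lay above the median on every array and MYF5 on none, and their mean was 4.4 to 4.9 per array. DES, the muscle intermediate filament desmin, stood at 5.51 and 5.04 under shGFP and at 6.21 and 5.94 under shRING1B in A673, a difference of 0.80 (limma adjusted p = 0.0712), and limma called none of the 4 there. The part of such cells or programmes in the members' values was not tested.

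**Figure D1:**
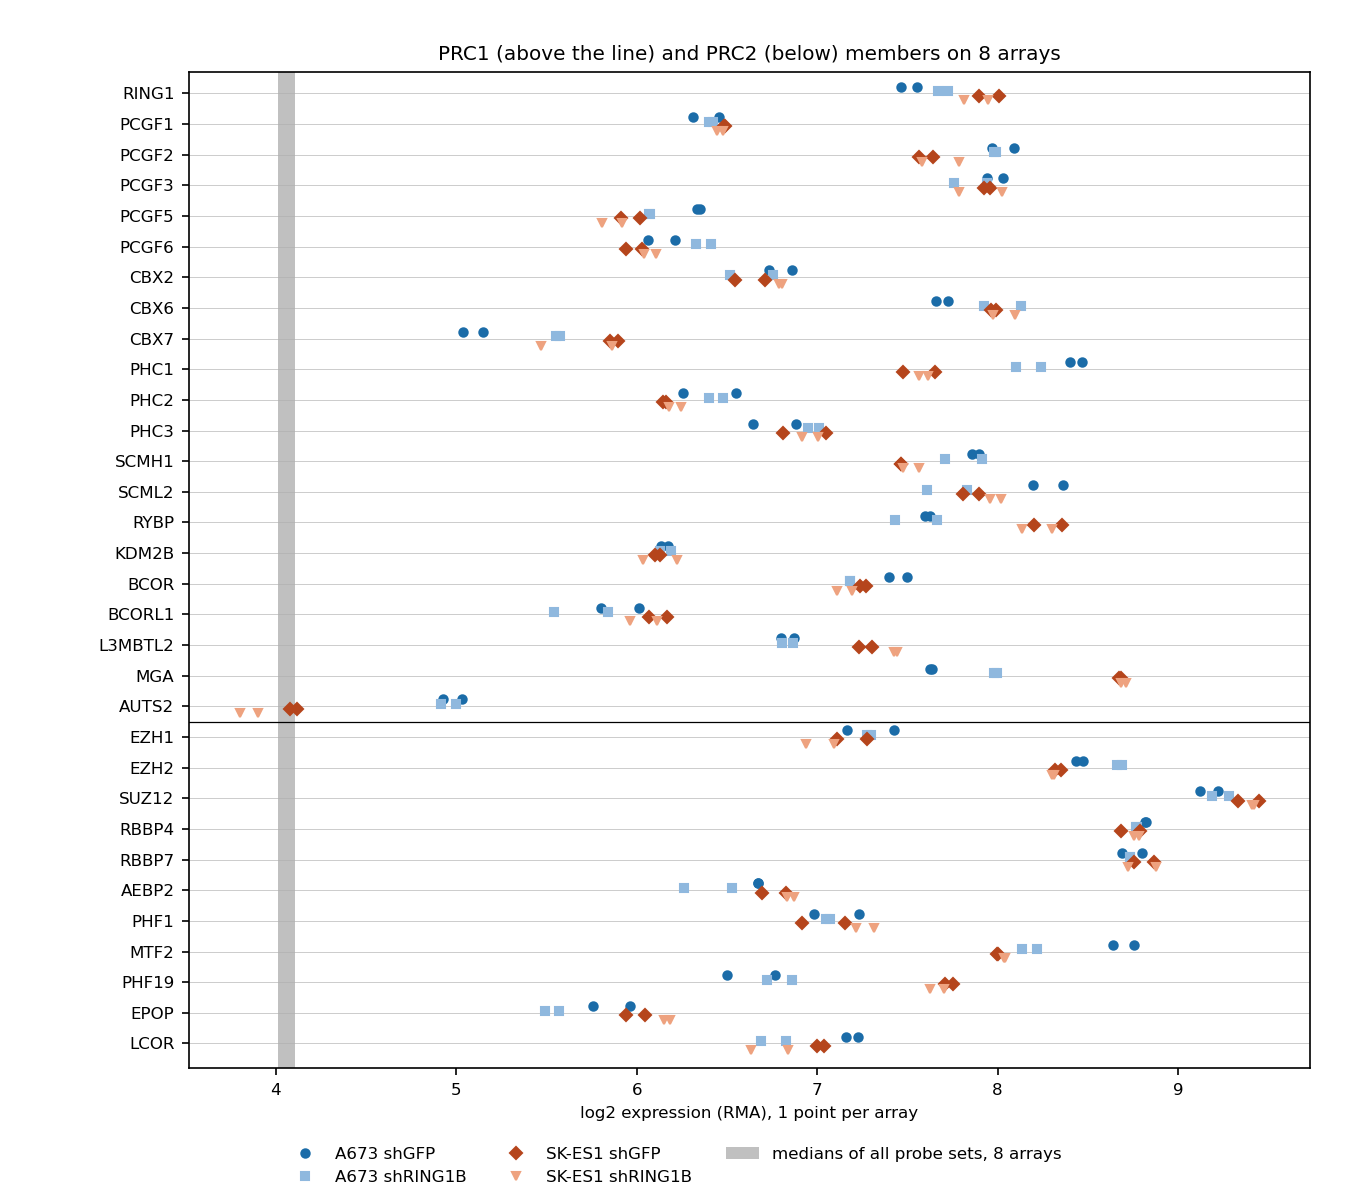
Log2 expression of the 32 measured members (x axis) in each of the 8 arrays, 1 point per array, with PRC1 members above the line and PRC2 members below it. The grey band spans the medians of all probe sets, 4.01 to 4.1, and AUTS2 in SK-ES1 is the member that reaches it.

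In A673, MTF2 and SCML2 were the members that limma called under the RING1B hairpin, and both were lower. MTF2, a Polycomb-like subunit of PRC2, stood at 8.64 and 8.76 in the shGFP arrays and at 8.13 and 8.22 in the shRING1B arrays. Its mean went from 8.70 ± 0.0847 to 8.18 ± 0.0584 (SD, n = 2), a log2 difference of -0.52 with a standard error of 0.11 and a 95% interval of -0.77 to -0.28 (limma adjusted p = 0.0318). Both shRING1B arrays lay below both shGFP arrays, and the size is 1.44-fold. In RNA from whole cultures, fewer cells that express a gene and less of its RNA per cell cannot be told apart. SCML2, a PRC1-associated protein with a sterile alpha motif, stood at 8.20 and 8.36 under shGFP and at 7.61 and 7.83 under shRING1B. Its mean went from 8.28 ± 0.117 to 7.72 ± 0.157, a log2 difference of -0.56 with a standard error of 0.124 and an interval of -0.83 to -0.28 (limma adjusted p = 0.0398), and the groups did not overlap.

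With 2 of 32 members called (6.25%), against 3.74% of all 14884 genes called in A673 and 3.04% called lower, the share among members was near the background. At an unadjusted p under 0.05, 11 of 32 members passed, a larger share than the 18.9% of all genes. The median size of the log2 difference, without its sign, was 0.17 over the members and 0.15 over all genes. Whether the members exceed all genes on these 2 measures was not tested. The members' median log2 difference was -0.04 and that of all genes 0.01, with 13 members above 0 and 19 below, where 47.8% of all genes lay below 0. Both calls lie close to the threshold. Neither gene stayed called when any single array of the 8 was left out. That includes the SK-ES1 arrays, which do not enter the A673 means, and the number of all genes called in those fits is not given here. Over the 16 alternative runs, those without 1 array included, the difference was -0.58 to -0.46 for MTF2 and -0.67 to -0.45 for SCML2.

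Genes beside MTF2 and SCML2 on their chromosomes also had values below 0 in A673. Of the 24 nearest measured protein-coding genes around MTF2 on chromosome 1, 12 on each side with a mean above the median of all probe sets, 18 lay below 0, with a median of -0.22, and 4 lay below MTF2 itself. Of the 24 around SCML2 on chromosome X, 19 lay below 0, with a median of -0.26, and 3 lay below SCML2. The part of these neighbourhoods in the change of either gene was not tested. In SK-ES1 the medians of the same neighbours were 0.00 and -0.04.

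**Figure D2:**
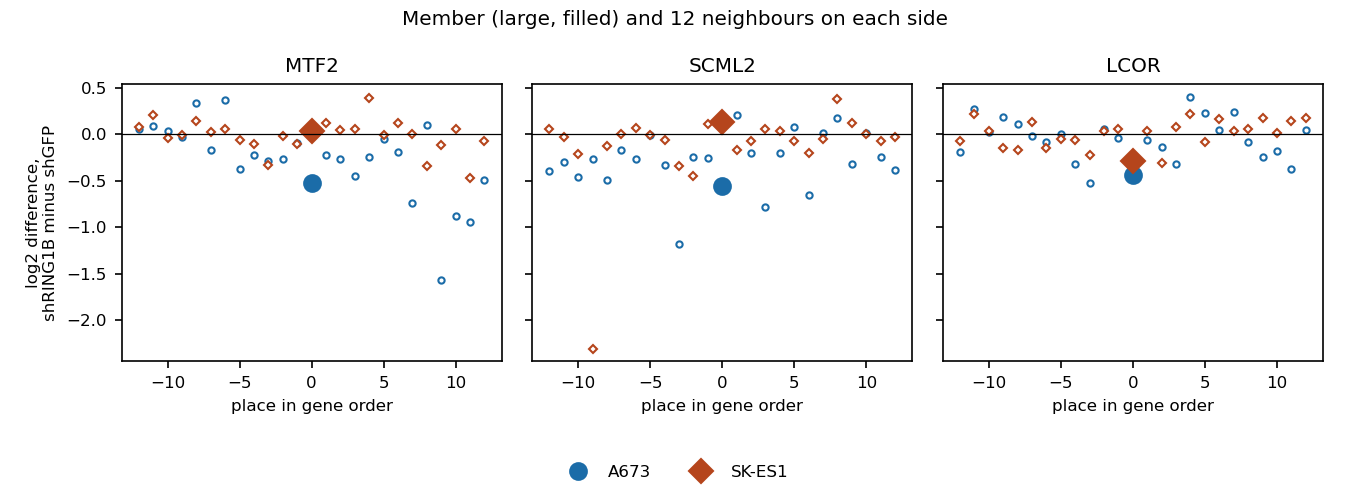
Log2 difference, shRING1B minus shGFP (y axis), of MTF2, SCML2 and LCOR (large filled points at place 0) and of their 12 measured neighbours on each side in gene order (x axis, open points), for A673 (circles) and SK-ES1 (diamonds). In A673 18 of 24 neighbours of MTF2 and 19 of 24 of SCML2 lie below 0, against 13 of 24 for LCOR.

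The next smallest p in A673 belonged to LCOR, whose locus encodes a nuclear receptor corepressor and, as another product, the PRC2 partner PALI1. A probe set named for the gene does not tell these products apart. LCOR stood at 7.22 and 7.16 under shGFP and at 6.69 and 6.83 under shRING1B in A673, a log2 difference of -0.43 (standard error 0.12, limma adjusted p = 0.0811). In SK-ES1 it stood at 7.04 and 7.00 under shGFP and at 6.84 and 6.63 under shRING1B, a difference of -0.28 (limma adjusted p = 0.655). In each line both shRING1B arrays lay below both shGFP arrays, but LCOR was called in neither. Its mean effect over the lines, -0.36 with an interval of -0.55 to -0.17, had the smallest p of the members (limma adjusted p = 0.0784). The 24 neighbours of LCOR on chromosome 10 had a median of -0.03 in A673 and 0.03 in SK-ES1.

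CBX7, CBX6 and MGA had the highest positive values in A673, none of them called. CBX7, which reads methylated histone H3 in canonical PRC1, stood at 5.04 and 5.15 under shGFP and at 5.58 and 5.55 under shRING1B, a difference of 0.47 with an interval of 0.16 to 0.78 (limma adjusted p = 0.0991). CBX6 stood at 7.72 and 7.66 under shGFP and at 7.93 and 8.13 under shRING1B, a difference of 0.34 (limma adjusted p = 0.16), and its other probe set differed by 0.14. MGA, the scaffold of the PCGF6 complex and a partner of MAX, stood at 7.64 and 7.63 under shGFP and at 8.00 and 7.98 under shRING1B, a difference of 0.36 (limma adjusted p = 0.0965). For these 3 genes the A673 groups did not overlap. CBX6 and CBX7 are next to each other in the gene order of chromosome 22. SUN2 at 0.44 and NPTXR at 0.64 come before CBX6, and PDGFB at -0.10 comes after CBX7. The 24 neighbours had a median of 0.02 for CBX6 and for CBX7. Those of MGA on chromosome 15 had a median of 0.12, and 6 lay below 0. The part of these neighbourhoods in the 3 values was not tested.

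**Figure D3:**
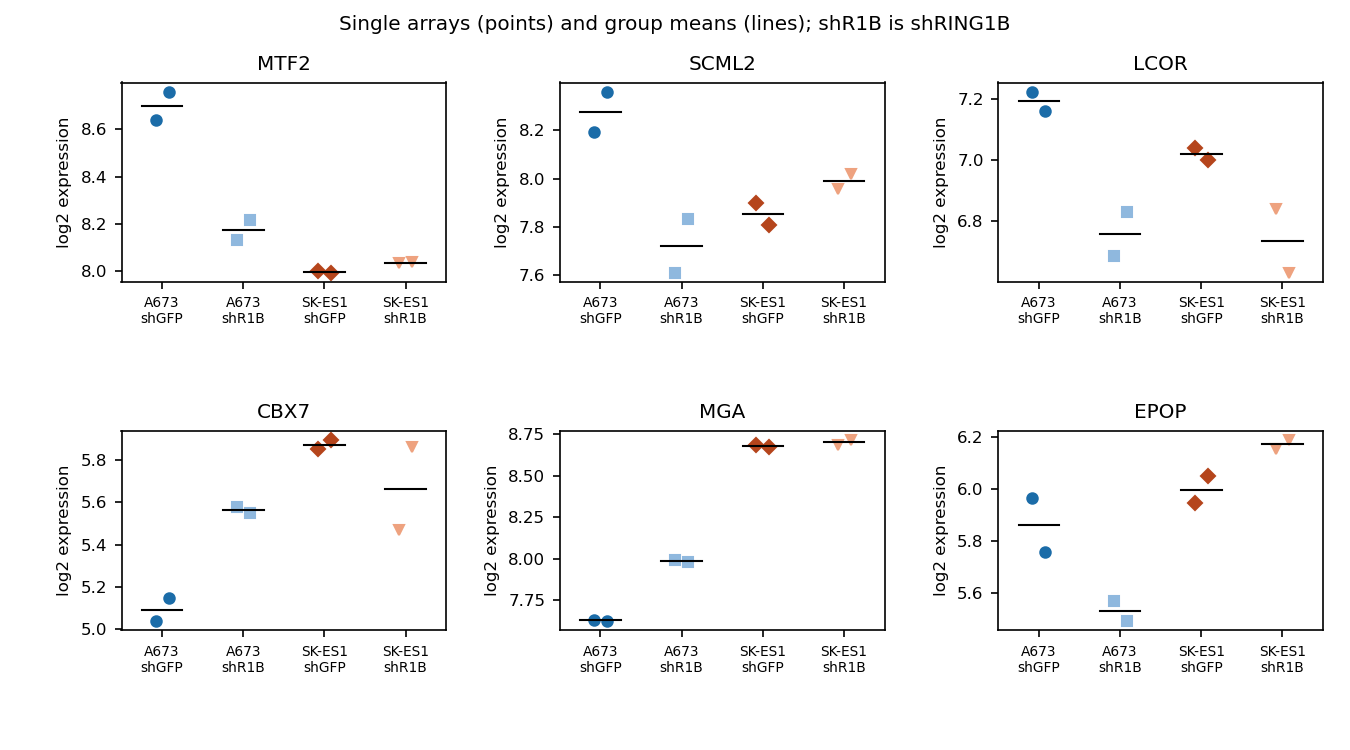
Log2 expression (y axes, each panel with its own range that does not start at 0) of MTF2, SCML2, LCOR, CBX7, MGA and EPOP in the 4 groups, 1 point per array with a line at each group mean. MTF2 in A673 goes from 8.70 to 8.18, and in SK-ES1 it stands at 8.00 and 8.04.

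By complex, the remaining PRC1 members in A673 gave these values. RING1, the paralogue of RNF2 in the catalytic core, stood at 7.55 and 7.46 under shGFP and at 7.67 and 7.73 under shRING1B, a difference of 0.19 with an interval of -0.06 to 0.44 (limma adjusted p = 0.416). In SK-ES1 RING1 stood at 8.01 and 7.90 under shGFP and at 7.95 and 7.82 under shRING1B, a difference of -0.07 with an interval of -0.33 to 0.18. The A673 arrays of RING1 did not overlap and the SK-ES1 arrays did, and no change of this paralogue was detectable in either line with 2 arrays a group. Its 6 probe sets carried the same values to 2 decimals and count as 1 measurement.

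Among the 5 measured PCGF proteins the A673 differences ran from -0.27 for PCGF5 to 0.23 for PCGF6, with PCGF1 at 0.03, PCGF2 at -0.04 and PCGF3 at -0.14, and limma called none of them. PCGF5, of a variant complex it shares with AUTS2, stood at 6.35 and 6.33 under shGFP and at 6.07 and 6.07 under shRING1B (limma adjusted p = 0.219). PCGF6 stood at 6.21 and 6.06 and then at 6.41 and 6.33 (limma adjusted p = 0.31). In neither gene did the groups overlap, as was so for 17 of the 32 members in A673, against 49.9% of all genes.

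Of the canonical PRC1 partners, PHC1 differed by -0.26 in A673 on the probe set used and by -0.36 on its other probe set, PHC2 by 0.03, PHC3 by 0.22, CBX2 by -0.16 and SCMH1 by -0.07. Of the variant partners, BCOR, a corepressor of the PCGF1 complex, stood at 7.40 and 7.50 under shGFP and at 7.18 and 7.18 under shRING1B, a difference of -0.27 (limma adjusted p = 0.219), and its paralogue BCORL1 differed by -0.22. KDM2B, a CG-binding demethylase that brings the PCGF1 complex to DNA, differed by 0.01 with an interval of -0.25 to 0.26. RYBP, the shared subunit of variant PRC1, differed by -0.07, AUTS2 by -0.03 and L3MBTL2, a chromatin reader of the PCGF6 complex, by 0.00. Limma called none of these members.

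No subunit of the PRC2 core was called in A673. SUZ12, its scaffold, differed by 0.06 in A673 with an interval of -0.19 to 0.31, RBBP4 and RBBP7, its histone chaperones, by -0.05 and -0.01, and EZH1 by -0.01. EZH2, the main methyltransferase of dividing cells, stood at 8.43 and 8.47 under shGFP and at 8.69 and 8.66 under shRING1B, a difference of 0.22 with an interval of -0.01 to 0.46 (limma adjusted p = 0.289). The A673 groups of EZH2 did not overlap, but the difference was not called. Of the accessory subunits, EPOP stood at 5.97 and 5.76 under shGFP and at 5.57 and 5.49 under shRING1B, a difference of -0.33 (limma adjusted p = 0.167). AEBP2 differed by -0.28, PHF19 by 0.16 and PHF1 by -0.05, and the other probe sets of PHF1 differed by 0.11 and 0.07.

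In SK-ES1 none of the 32 members was called by limma, where 0.0672% of all genes were, and 1 member, LCOR, had an unadjusted p under 0.05, against 7.36% of all genes. The members' differences ran from -0.28 to 0.23, and for each of the 32 the 95% interval, taken gene by gene, lay inside a 1.5-fold change in either direction. In A673 that held for 25 members. AUTS2 had the second smallest p in SK-ES1, at 4.12 and 4.08 under shGFP and 3.80 and 3.90 under shRING1B, a difference of -0.25 (limma adjusted p = 0.682). All 4 values lay near the array median, where signal carries little information on level. PHF1 followed, at 6.91 and 7.16 and then 7.22 and 7.32, a difference of 0.23 (limma adjusted p = 0.782). MTF2 stood at 8.00 and 7.99 under shGFP and 8.03 and 8.04 under shRING1B, a difference of 0.04 with an interval of -0.21 to 0.28. SCML2 stood at 7.90 and 7.81 and then at 7.96 and 8.02, a difference of 0.14 with an interval of -0.14 to 0.41. The groups did not overlap for 18 of the 32 members, against 37.2% of all genes.

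**Figure D4:**
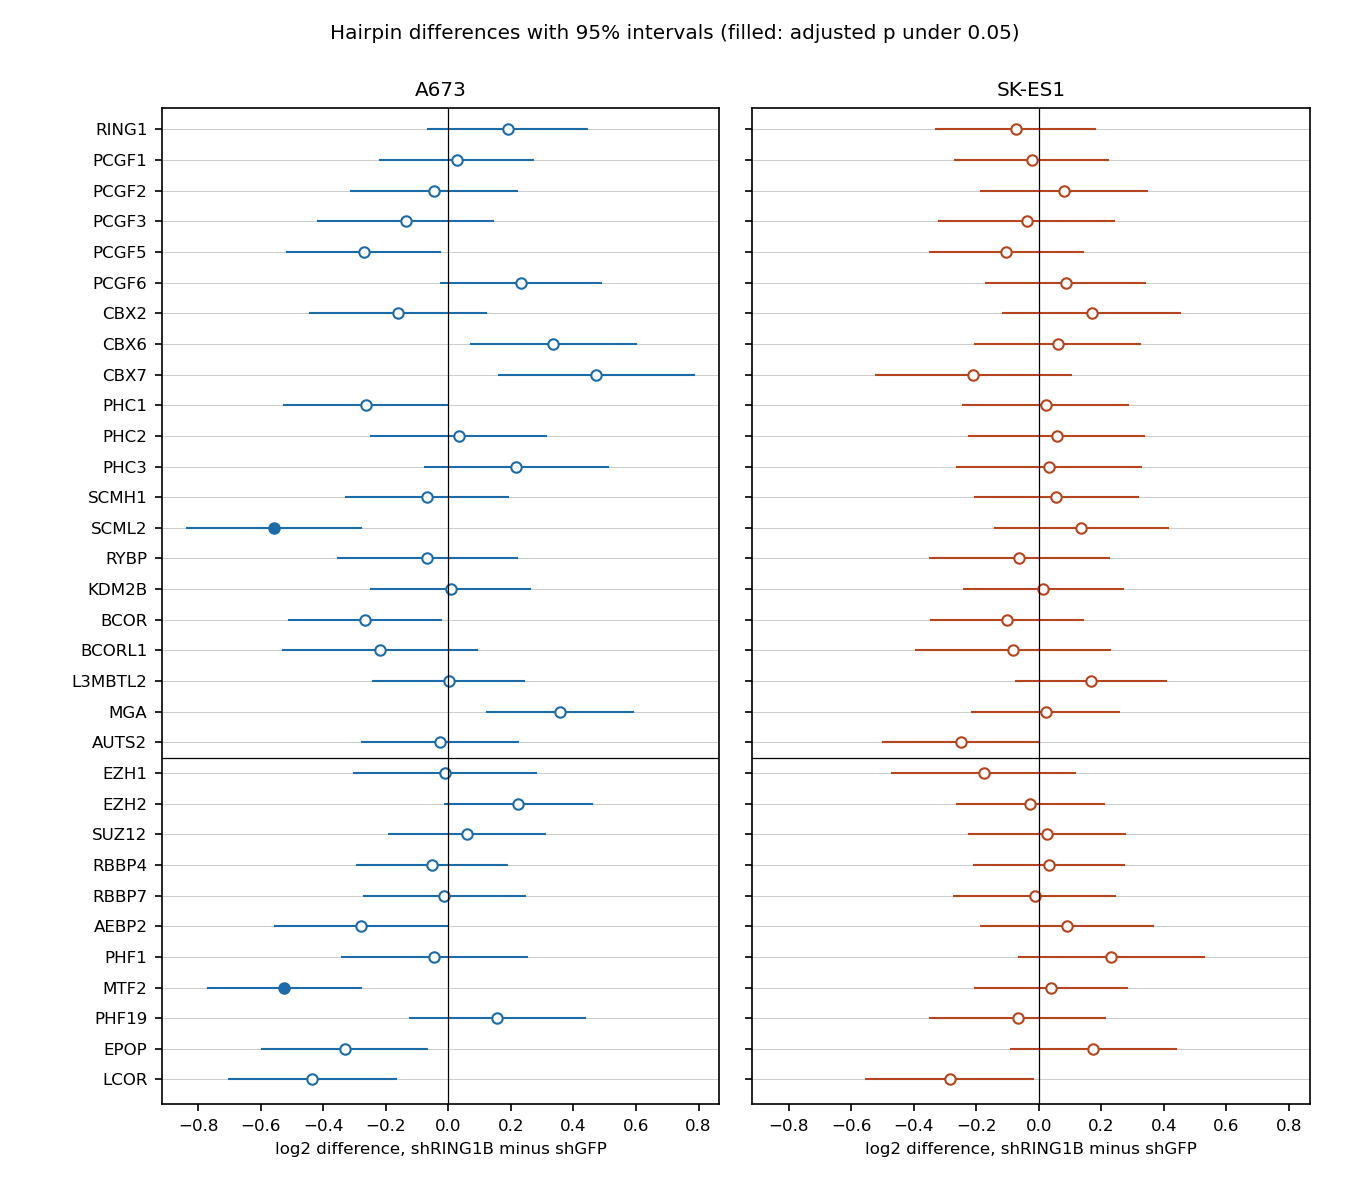
Log2 difference, shRING1B minus shGFP (x axis), of each member with its 95% interval from the model, in A673 and in SK-ES1, filled where the adjusted p is under 0.05. MTF2 and SCML2 in A673 are the filled points, and no SK-ES1 point is filled.

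No member's hairpin effect was shown to differ between the lines. In the test of the difference itself, SK-ES1 effect minus A673 effect, limma called 0 of 32 members, against 0.786% of all genes, and 5 passed an unadjusted p under 0.05, against 13.7%. The smallest p belonged to SCML2, with a difference of effects of 0.69 and an interval of 0.30 to 1.08 (limma adjusted p = 0.126), then MTF2 with 0.56 (limma adjusted p = 0.156) and CBX7 with -0.68 (limma adjusted p = 0.176). EPOP had 0.51 (limma adjusted p = 0.232) and MGA -0.34 (limma adjusted p = 0.36). For the mean effect over both lines limma also called 0 of 32, against 1.36% of all genes, and 7 members passed an unadjusted p under 0.05, against 14.5%. After LCOR these were led by MTF2 at -0.24 (limma adjusted p = 0.187) and MGA at 0.19 (limma adjusted p = 0.278).

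More members were called between the lines than under the hairpin in either line. Under shGFP, 13 of 32 members (40.6%) were called between SK-ES1 and A673, 6 higher and 7 lower in SK-ES1, against 30.7% of all genes called, 13.7% higher and 17% lower. The members' median difference was -0.06 and that of all genes 0.01, and 26 of 32 members had groups that did not overlap, against 64.8% of all genes. Fewer members were called when any single shGFP array was left out, which leaves 1 array in its group. The number of all genes called in those fits is not given here, so this is not read as a result about the members. In those fits no called member changed direction. Averaged over both hairpins, 17 of 32 members were called, against 41% of all genes. This comparison shares the A673 shGFP and SK-ES1 shGFP arrays with the hairpin comparisons above, so a chance deviation in a control array enters both.

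Of the 3 Polycomb-like proteins of PRC2, PHF19 was higher and MTF2 lower in SK-ES1, and PHF1 was not called. PHF19 stood at 6.77 and 6.50 in A673 shGFP and at 7.75 and 7.71 in SK-ES1 shGFP, 1.10 higher in SK-ES1 on the log2 scale with a standard error of 0.125, or 2.14-fold (limma adjusted p = 9.58e-05). MTF2 was lower in SK-ES1 by the difference of -0.70, with an interval of -0.95 to -0.46 (limma adjusted p = 0.000775). PHF1 differed by -0.07 with an interval of -0.37 to 0.22, and by -0.28 and -0.31 on its other probe sets. In the shRING1B arrays PHF19 stood at 6.72 and 6.86 in A673 and at 7.62 and 7.70 in SK-ES1, and MTF2 at 8.13 and 8.22 in A673 and at 8.03 and 8.04 in SK-ES1. Averaged over both hairpins the difference of MTF2 was -0.42. Of the 24 neighbours of PHF19 on chromosome 9 none had a higher line difference, and their median was -0.12. For MTF2 the neighbours' median was -0.38, and 4 of 24 were lower.

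Among canonical PRC1 members under shGFP, PHC1 was higher in A673 and CBX7 higher in SK-ES1. PHC1, a polyhomeotic protein that joins PRC1 particles through its sterile alpha motif, stood at 8.40 and 8.47 in A673 shGFP and at 7.48 and 7.66 in SK-ES1 shGFP, a difference of -0.87 (SE 0.118, limma adjusted p = 0.000307), and its other probe set gave -0.71. Its neighbours on chromosome 12 had a median of -0.34. CBX7 stood at 5.85 and 5.90 in SK-ES1 shGFP, against 5.04 and 5.15 in A673 shGFP, a difference of 0.78 (limma adjusted p = 0.0018), with a median of 0.05 among its neighbours on chromosome 22. Under shRING1B the lines overlapped for CBX7, at 5.58 and 5.55 in A673 and at 5.47 and 5.87 in SK-ES1, and the difference averaged over both hairpins was 0.44. CBX2 and CBX6 differed by -0.17 and 0.28, PHC2 and PHC3 by -0.25 and 0.17, and limma called none of these 4.

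PCGF2, the PCGF protein of canonical PRC1 measured here, was lower in SK-ES1, by the difference of -0.43 (limma adjusted p = 0.0202), from 7.97 and 8.09 in A673 shGFP to 7.56 and 7.64 in SK-ES1 shGFP. RING1 was higher by 0.45 (limma adjusted p = 0.0134). SCMH1, a relative of SCML2, stood at 7.90 and 7.86 in A673 shGFP and at 7.46 and 7.46 in SK-ES1 shGFP, a difference of -0.41 (limma adjusted p = 0.0215). SCML2 differed by -0.43 (limma adjusted p = 0.0256). Its 24 neighbours on chromosome X had a median of -0.32, with 16 below 0 and 10 below SCML2 itself. The neighbours' medians were -0.05 for PCGF2, 0.08 for RING1 and 0.02 for SCMH1. None of these 4 genes had overlapping shGFP groups. Averaged over both hairpins, 4 arrays against 4, the difference of SCML2 was -0.08 and no longer called (limma adjusted p = 0.524), while those of PCGF2, RING1 and SCMH1 stayed called at -0.37, 0.31 and -0.35. PCGF1, PCGF3 and PCGF6 differed by 0.10, -0.04 and -0.15 under shGFP and were not called.

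The scaffold of the PCGF6 complex showed the smallest p of all members. MGA stood at 7.64 and 7.63 in A673 shGFP and at 8.68 and 8.67 in SK-ES1 shGFP, a log2 difference of 1.05 with an interval of 0.81 to 1.28 (limma adjusted p = 3.97e-05). None of its 24 neighbours on chromosome 15 had a higher line difference, and their median was 0.08. L3MBTL2, of the same complex, stood at 6.87 and 6.80 in A673 shGFP and at 7.23 and 7.30 in SK-ES1 shGFP, 0.43 higher (limma adjusted p = 0.0122). RYBP stood at 7.60 and 7.63 in A673 shGFP and at 8.20 and 8.36 in SK-ES1 shGFP, 0.67 higher (limma adjusted p = 0.00285). Not all genes of the PCGF6 complex were higher in SK-ES1. CBX3, also found in this complex, stood at 9.27 and 9.58 in A673 shGFP and at 7.97 and 8.35 in SK-ES1 shGFP. The difference of CBX3 was -1.27, and its 24 neighbours on chromosome 7 had a median of -0.92. PCGF6 itself differed by -0.15 and was not called.

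PCGF5 and AUTS2, which meet in a variant complex, were both lower in SK-ES1. AUTS2, a neurodevelopmental protein, differed by -0.88 (limma adjusted p = 0.000191). Its SK-ES1 values lie at the array median, with no signal over background measured, so the size of this difference is uncertain. The neighbours' median on chromosome 7 was -0.23. PCGF5 stood at 6.35 and 6.33 in A673 shGFP and at 6.02 and 5.91 in SK-ES1 shGFP, a difference of -0.37 (limma adjusted p = 0.0266), and the neighbours' median on chromosome 10 was -0.38. KDM2B, BCOR and BCORL1 differed by -0.04, -0.19 and 0.21 and were not called. In the PRC2 core, SUZ12 differed by 0.22, EZH2 by -0.12, EZH1 by -0.10, RBBP4 by -0.09 and RBBP7 by 0.07, and EPOP, AEBP2 and LCOR by 0.13, 0.09 and -0.17, none of them called.

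**Figure D5:**
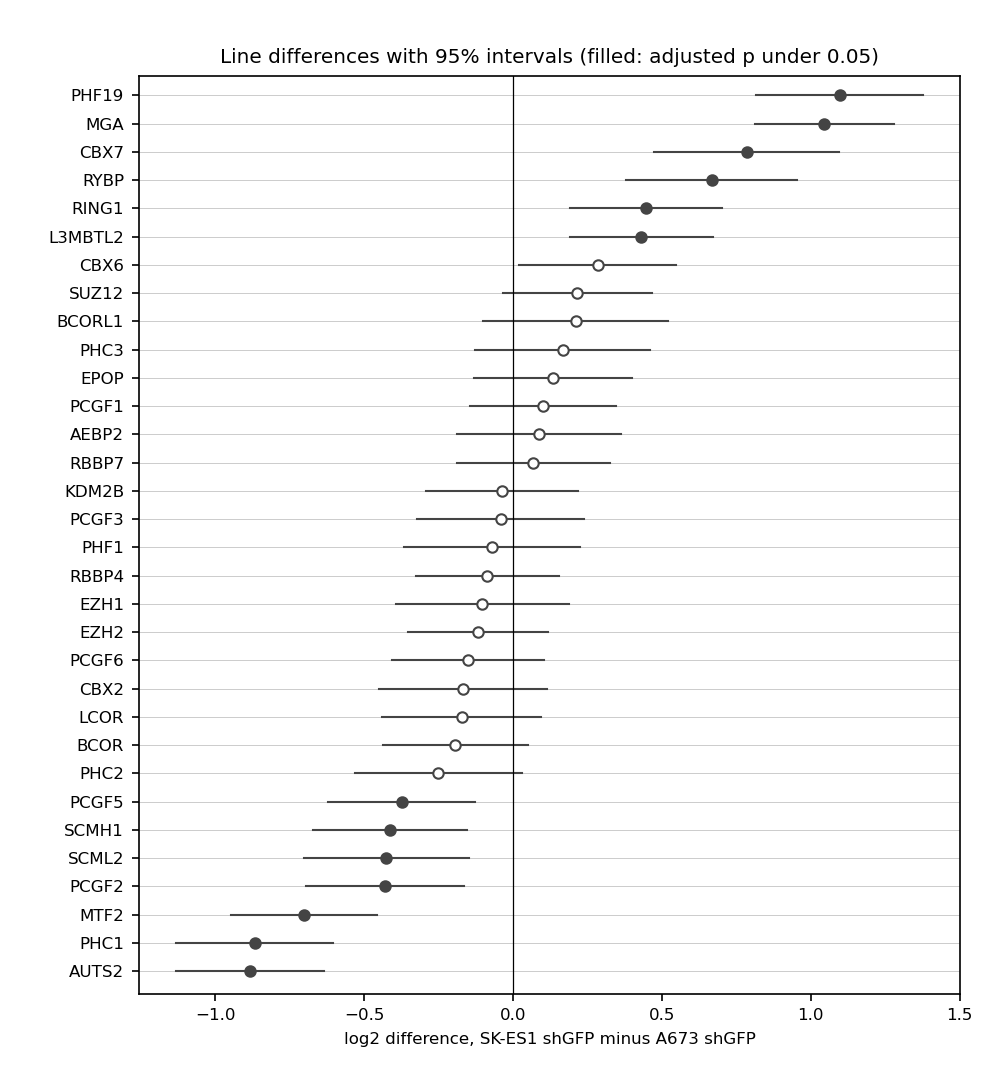
Log2 difference between the lines under shGFP, SK-ES1 minus A673 (x axis), of each member with its 95% interval from the model, ordered by size and filled where the adjusted p is under 0.05. PHF19 at 1.10 and MGA at 1.05 lie at the high end, and AUTS2 at -0.88 and PHC1 at -0.87 at the low end.

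Genes that work with or against the Polycomb complexes were read from 5 further lists, of which 52 of 71 genes were measured. Of 10 genes of the PR-DUB complex, which removes the PRC1 mark, and its partners, limma called 0 in A673, against 3.74% of all genes, and 3 had an unadjusted p under 0.05, against 18.9%. The smallest p was that of OGT, a glycosyltransferase, at -0.49 (limma adjusted p = 0.115). Of 6 H2A deubiquitinases and readers of the PRC1 mark 0 were called in A673 and 3 had an unadjusted p under 0.05. Of 12 histone H3 demethylases and members of the opposing methyltransferase complexes 0 were called, and 0 had an unadjusted p under 0.05. Of 24 further PRC partners 1 was called and 3 had an unadjusted p under 0.05. The called gene was CBX3, a heterochromatin protein found in the PCGF6 complex, which stood at 9.27 and 9.58 under shGFP and at 8.60 and 8.54 under shRING1B in A673, a difference of -0.86 (limma adjusted p = 0.0165). It lies on chromosome 7 among 24 neighbours with a median of -0.49, of which 20 lay below 0, and leaving out A673 shGFP replicate 2, or either of the A673 shRING1B arrays, ended its call.

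CDKN2A, the classic cell cycle gene silenced by Polycomb, was the measured member of the last list. It stood at 4.83 and 5.18 in A673 shGFP and at 4.29 and 4.49 in A673 shRING1B, a difference of -0.61 (limma adjusted p = 0.0477), and at 4.14 and 4.02 and then 4.02 and 4.14 in SK-ES1, a difference of 0.00. The SK-ES1 values lie at the array median, where a lower level might not show, so they are not set against the A673 difference. The A673 shRING1B values also lie near the medians of their arrays, 4.07 and 4.01. Signal over background was not measured, so these values do not show whether CDKN2A is expressed in A673. The size of the A673 difference is uncertain too. The A673 call was lost under each of the 3 other normalizations tried, and when any array other than A673 shGFP replicate 1 was left out. In SK-ES1 limma called 0 genes of the 5 lists, against 0.0672% of all genes. At an unadjusted p under 0.05 2 of the 24 further partners passed and 0 of the other lists, against 7.36% of all genes.

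Genes that oppose PRC2 and PRC1 were also called between the lines, KDM6A, KDM6B and USP22 among them as lower in SK-ES1. Of the 12 histone H3 demethylases and methyltransferase partners 6 were called, each of them lower in SK-ES1, against 30.7% of all genes called. KDM6B, a histone H3 demethylase, stood at 7.40 and 7.67 in A673 shGFP and at 6.01 and 5.92 in SK-ES1 shGFP, a difference of -1.57 (limma adjusted p = 2.14e-05). KDM6A differed by -0.87 (limma adjusted p = 0.000343). It is 1 of the 24 neighbours of BCOR on chromosome X, whose median line difference was -0.48, with 17 below 0. The part of this neighbourhood in the KDM6A value was not tested. Of the 6 deubiquitinases and readers 5 were called, 1 higher in SK-ES1 and 4 lower. USP44, a deubiquitinase, was higher by 1.41, with A673 shGFP values of 3.89 and 3.87 that lie below the array median and leave that size uncertain, and USP22, the deubiquitinase of the SAGA coactivator, was lower by the difference of -1.12. Of the 24 further partners 14 were called, 6 higher and 8 lower. The smallest p belonged to the SCML2 relatives SCML1, at 6.27 and 6.53 in A673 shGFP and 4.25 and 4.39 in SK-ES1 shGFP, and SCML4, at 3.37 and 3.77 in A673 shGFP and 5.42 and 5.35 in SK-ES1 shGFP. The A673 values of SCML4 lie below the array median. The SK-ES1 shGFP values of SCML1 lie close to the medians of their arrays, 4.05 and 4.07. The sizes of both differences are therefore uncertain too. Of the 10 PR-DUB genes and partners 2 were higher, KDM1B and ASXL2, and 1 was lower, HCFC1.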

How the data were processed

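The authors' deposited values are log2 expression per probe set, made with RMA per the submitters' processing notes, which also name limma, both without stated versions. RMA corrects background, makes the arrays' distributions equal by quantile normalization and summarizes probes by median polish, and the second step hides a shift common to most genes. The array version and genome build are not given in the sources used here. Per the labels' protocols, 30 ng of RNA per sample was labelled with a whole-transcript kit. Of 48144 probe sets, 16098 (33.4%) had 1 gene symbol in the platform table. No column of sample values was left unused.

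A model with 4 group means was fitted to all 14884 genes with limma 3.58.1 in R 4.3.3, with 4 residual and 6 prior degrees of freedom. P-values are two-sided and Benjamini-Hochberg adjusted over all 14884 genes, and a gene is called at an adjusted p under 0.05. The fit was also run on simulated data with shifts larger than any hairpin difference of a member. That run does not cover differences of the members' size. Replicate numbers follow accession order. Gene order and promoter sequences are RefSeq's, GRCh38.p14. The number of arrays limits the precision, and signal over background was not measured.

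Members with full statistics are those called in any of 5 contrasts, or the 3 with the smallest p where fewer than 3 were called. The others are given by value, and neighbours were taken up after values were seen. Members and lists were chosen with earlier results of these data known.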

Additional observations from a re-analysis of the deposited data

How the results depend on the processing

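Of all genes, 557 were called in A673 as reported, 471 after a second quantile normalization, 507 after cyclic loess and 523 with median centring. For the other settings the number of all genes called is not given here. Changed counts of members under those settings are therefore not read as results about the members. For A673, 2 members were called as reported and after a second quantile normalization, after cyclic loess and on probe sets averaged per gene. The count was 1 with median centring and 4 with a trended, robust variance model (MTF2 and SCML2 with LCOR lower and MGA higher). It was 3 without dim genes, 0 with only the 4 A673 arrays and 0 with all probe sets tested. MTF2 and SCML2 did not stay called when any single array was left out. For SK-ES1 it was 0 under each of the 16 alternatives. For the mean effect it was 2 with the trended, robust model (LCOR and MTF2), 1 without dim genes (LCOR) and otherwise 0, and for the difference of effects 2 with the trended, robust model (MTF2 and SCML2) and otherwise 0. The line difference gave 7 to 13 members with each array left out, 9 with all probe sets tested, where fewer genes passed among more tests, and 17 averaged over both hairpins. No direction of a named member was reversed under an alternative run. MGA, PHF19, AUTS2, PHC1, MTF2, CBX7 and RYBP kept their line call under all 17 alternatives. The causes of the other changes were not tested. No paired analysis was possible because the labels give no replicate number shared between groups, and numbers in accession order only name arrays.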
